A study of Mus musculus with 6 samples.

Results

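The apolipoprotein L genes were examined by RNA sequencing in the colon of mice exposed for a long term to PFOA (perfluorooctanoic acid), a fluorinated surfactant that persists in the environment and the body. The 8 genes Apol6, Apol7a, Apol7b, Apol7e, Apol10a, Apol10c-ps, Apol11a and Apol11b were chosen by name, as the rows of the deposited count table whose reference symbol begins with Apol and a digit, 8 of 2033 rows in all. The family was taken up with its difference between PFOA and control known from these same counts. The groups were colon of PFOA-exposed mice (3 libraries) and colon of control mice (3 libraries). Per the labels, colon of 6 mice per group was frozen, but mice are not tied to libraries, and dose, duration, strain, sex, age and part of the colon are not given. The spread between libraries may therefore be technical. If the groups were sampled at different places along the colon, that cannot be told apart from an effect of PFOA.

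The deposited table had itself been selected on the difference between PFOA and control: 1035 rows were higher and 998 lower in PFOA by mean raw count, and no row had a log2 ratio between -1.08 and 0.92. That an apolipoprotein L row differs between the groups thus follows from its being listed, and the differences below are a description, without a test. Listed counts summed to between 2136897 and 2269892 per PFOA library and between 1771120 and 2155472 per control library, which is not the sequencing depth. Replicate 1 stood apart in both groups: chi-square over degrees of freedom was 282 and 362.9 for PFOA replicate 1 against PFOA replicates 2 and 3, which differed from each other by 34.5, and 137.6 and 120.5 for control replicate 1 against control replicates 2 and 3, which differed from each other by 22.4. All control counts of Apol7b, Apol10a and Apol10c-ps are in control replicate 1. Defining genes of absorptive colonocytes had counts in every library. The carbonic anhydrase Car1 had 39638 to 125029 counts in the PFOA libraries and 5727 to 17063 counts in the control libraries, and the anion exchanger Slc26a3 had 6770 to 18783 counts in the PFOA libraries and 44864 to 60351 counts in the control libraries.

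Apolipoprotein L proteins carry amphipathic helices that insert into lipid membranes. In humans, APOL1 circulates on high-density lipoprotein and lyses trypanosomes, while most other family members act inside cells, and several human APOL genes are induced by interferon. In the mouse the family is expanded into a cluster on chromosome 15, and the functions of many of its copies are not established.

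All 8 apolipoprotein L rows were higher in PFOA, and the summed level of the family was 10.6-fold higher. Apol6 and the transcribed pseudogene Apol10c-ps made up most of the counts in PFOA colon. Apol10a and Apol10c-ps were nearly absent from control colon, whereas Apol6 and Apol7a had counts in every control library. Of the 8 rows, 5 had enough counts for edgeR's quasi-likelihood test across the whole table, and all 5 were called higher. Of all 1608 tested rows 50.0% were called higher and 50.0% lower, every tested row was called, and nothing is read from the members' count. No apolipoprotein L row was called lower by edgeR, by DESeq2 or by limma-voom, or at an unadjusted p under 0.05 (0 rows each). The PFOA libraries all lay above the control libraries in 7 of the 8 rows, as they did in 48.6% of all listed rows. That share is 989 rows, beside 1035 listed rows with a higher mean raw count in PFOA. Full separation was thus usual among the higher rows, and nothing is read from the 7 of 8.

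The sequences before the start sites are shown first because the family's copies fall into groups by them. RefSeq promoters (250 bases before to 50 bases after the annotated start, build GRCm38.p6) were held for 6 of the 8 genes, all but Apol6 and Apol10c-ps. The promoters of Apol11a and Apol11b were 99.3% identical, that of Apol10a was 88.4% identical to Apol11a, and those of Apol7b and Apol7e were 96.1% identical. That of Apol7a was at most 46.4% identical to any other member's. The interferon-stimulated response element, the site bound by interferon-activated transcription factors, was searched on both strands as GAAANNGAAA. It was present in 4 of the 6 promoters and in 3.44% of 32851 promoters of the same length. The stretches are from chr15:77476961-77477040 (+ strand) for Apol10a, chr15:77508184-77508263 (+ strand) for Apol11a, chr15:77643292-77643371 (- strand) for Apol11b, chr15:77698818-77698903 (+ strand) for Apol7e and chr15:77447441-77447526 (- strand) for Apol7b. Capitals mark the bases in a match, which lies on the opposite strand in each case and so reads as its reverse complement. The stretches of Apol11a and Apol11b are the same letter for letter, and Apol7e has a pair of overlapping matches.
Apol10a: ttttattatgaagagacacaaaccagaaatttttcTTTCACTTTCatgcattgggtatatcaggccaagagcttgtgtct
Apol11a and Apol11b: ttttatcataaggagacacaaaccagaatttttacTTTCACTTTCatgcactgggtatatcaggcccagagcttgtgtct
Apol7e: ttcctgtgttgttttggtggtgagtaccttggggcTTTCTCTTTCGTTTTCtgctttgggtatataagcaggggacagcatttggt
Apol7b: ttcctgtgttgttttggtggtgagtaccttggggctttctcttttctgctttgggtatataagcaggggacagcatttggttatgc

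The match began 51 bases before the start of Apol10a and 50 bases before the starts of Apol11a and Apol11b. In Apol7e the matches began 36 and 30 bases before the start. The corresponding stretch of Apol7b, the closest relative of Apol7e, held no match to these letters, and neither did the promoter of Apol7a. The same letters were found for 4 of the 5 family members without a row (Apol7c, Apol9a, Apol9b and Apol10b, not Apol8). A gene was counted if any of its promoter entries matched, whereas the percentages over all promoters count entries. AGGTCA, the hexamer that many nuclear receptors bind, was found in 5 of the 6 promoters, all but that of Apol7a, and in 16.3% of all promoters. It was also found for 3 of the 5 family members without a row (Apol7c, Apol9a and Apol9b). TTTATG, part of the site of the intestinal factor CDX2, was found only in the promoter of Apol7a among the 6, and in 11.9% of all promoters. TATAAA was found in 0 of the 6 and in 13.6% of all promoters. These matches describe letters and say nothing of binding.

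The Apol6 row begins 343.5 kb before the row of the next member by coordinate. Apol6 had 1557, 1228 and 1340 counts in PFOA replicates 1, 2 and 3 and 110, 317 and 215 counts in control replicates 1, 2 and 3. All PFOA libraries were well above the highest control library, and the control libraries were spread more widely than the PFOA libraries in proportion. As counts-per-million values (CPM), relative to each library's TMM-scaled total of listed counts, its level was 677.5 ± 136 CPM in PFOA and 101.2 ± 49.9 CPM in control (SD, n = 3 each), 6.62-fold higher in PFOA. The log2 fold change that edgeR fitted was 2.74 ± 0.40 (SE, n = 3 each). In humans APOL6 can trigger cell death when overexpressed; no role is given here for the mouse gene. The row spans 77044729 to 77060851 on the + strand of chromosome 15 (mm10), 3745 bases past the end of the GENCODE M21 gene. Its first 5942 bases overlap Mb, the myoglobin gene on the opposite strand, and since the counting is not stated to use strand, reads of the Mb strand cannot be told apart from those of Apol6 there.

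Apol7a had 384, 226 and 342 counts in PFOA against 47, 61 and 72 counts in control. It was 5.45-fold higher, with every PFOA library above the highest control library, and edgeR fitted it at 2.47 ± 0.33 on the log2 scale (SE, n = 3 each). Its relatives Apol7b and Apol7e were low in both groups. For these 3 genes the deposited annotation gives human apolipoprotein L3 as the best protein match, which in humans is known to permeabilise bacterial membranes in the cytosol.

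Apol7b had 8, 15 and 12 counts in PFOA and 2, 0 and 0 counts in control, a ratio of 18.0 with a 95% Clopper-Pearson interval from 4.64 to 155 for counting error alone. Without control replicate 1 it had no control count and was at least 8.13-fold higher. Apol7e had 23, 17 and 13 counts in PFOA and 5, 7 and 6 counts in control, which is 3.04-fold higher, and edgeR fitted it at 1.60 ± 0.41 on the log2 scale (SE, n = 3 each). Among the 5 tested members Apol7e had the smallest difference. Apol7b shared 69.3% of the 50-base stretches of its annotated transcripts with Apol7e, and Apol7e shared 70.0% of its own with Apol7b. Reads from such stretches can be counted for either gene, so the split of counts between this pair is uncertain.

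Apol10c-ps, annotated as a transcribed unprocessed pseudogene, had 1028, 1083 and 969 counts in PFOA. In control it had 9, 0 and 0 counts, all of them in replicate 1. The ratio of summed scaled counts was 353, and without control replicate 1 the row had no control count and was at least 715-fold higher, taking 3 counts over the remaining control libraries as the floor. Among the 804 tested rows that were higher in PFOA, 3 had a larger fitted log2 fold change than Apol10c-ps (8.40 ± 0.94, SE, n = 3 each, edgeR). The fitted value was 12.98 without control replicate 1, which with no control count left is no bound, 7.80 without control replicate 2 and 7.70 without control replicate 3. The PFOA libraries differed by no more than 1.22-fold from lowest to highest, the narrowest range of the family. The row runs from 77653738 to 77659841 on the - strand. It holds the whole annotated pseudogene and extends 2263 bases past it at the lower coordinate, its downstream end. Its deposited length is 3442 bases, against 841 bases for the longest annotated transcript.

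Apol10a had 180, 174 and 87 counts in PFOA and 2, 0 and 0 counts in control. The ratio was 227, with a 95% Clopper-Pearson interval from 62.6 to 1883 for counting error alone. PFOA replicate 3 was the lowest PFOA library and still far above the control libraries. Its fitted log2 fold change was 7.60 ± 0.81 (SE, n = 3 each, edgeR), with 8 of the 804 higher rows above it. It was 10.19 without control replicate 1, where no control count was left and the fold was at least 102.4, and 6.95 without control replicate 3. Apol10c-ps shared 29.4% of the 50-base stretches of its annotated transcripts with Apol10a, and Apol10a shared 8.58% of its own with Apol10c-ps. In PFOA replicate 3 Apol10a was at 40.5 CPM and Apol10c-ps at 450.9 CPM, for each the lowest PFOA value. Sharing of reads between these rows was not tested.

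Apol11a had 4, 5 and 0 counts in PFOA and none in control. With 3 counts over the 3 control libraries as the floor, it was at least 3.09-fold higher. It was the only member whose groups overlapped, since PFOA replicate 3 had no count. The Apol11a row, from 77508271 to 77518051 on the + strand, lies wholly inside the Apol10a row, which runs 27833 bases past the annotated end of Apol10a, so that their reads cannot be assigned with certainty. Summed over both rows there were 184, 179 and 87 counts in PFOA and 2, 0 and 0 counts in control.

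Apol11b had 10, 16 and 13 counts in PFOA and 0, 1 and 1 counts in control, a ratio of 20.1 with a 95% Clopper-Pearson interval from 5.21 to 172 for counting error alone. Apol7b, Apol11a and Apol11b were too low for the edgeR filter. Apol11b shared 10.9% of its 50-base stretches with Apol11a and 5.71% with Apol10a, and Apol11a shared 15.3% of its own with Apol11b.

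**Figure D1:**
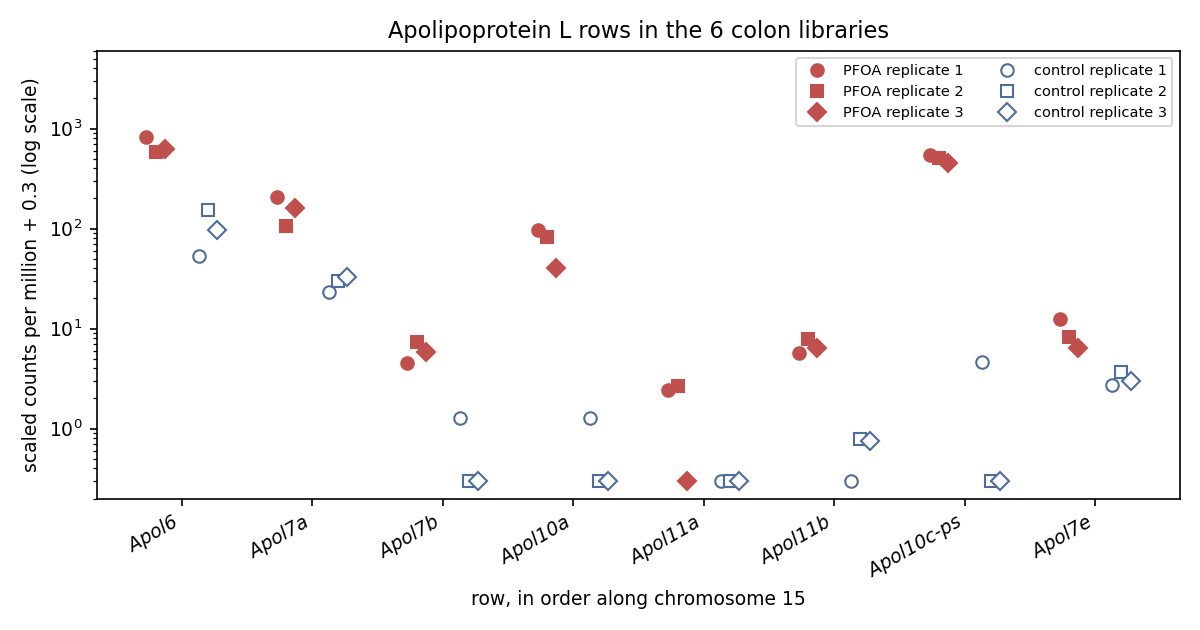
Scaled CPM, with 0.3 CPM added and on a log scale, of the 8 apolipoprotein L rows in the 3 PFOA libraries (filled, left) and the 3 control libraries (open, right); each point is a library. The libraries overlap between groups only for Apol11a, where PFOA replicate 3 has no count.

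**Figure D2:**
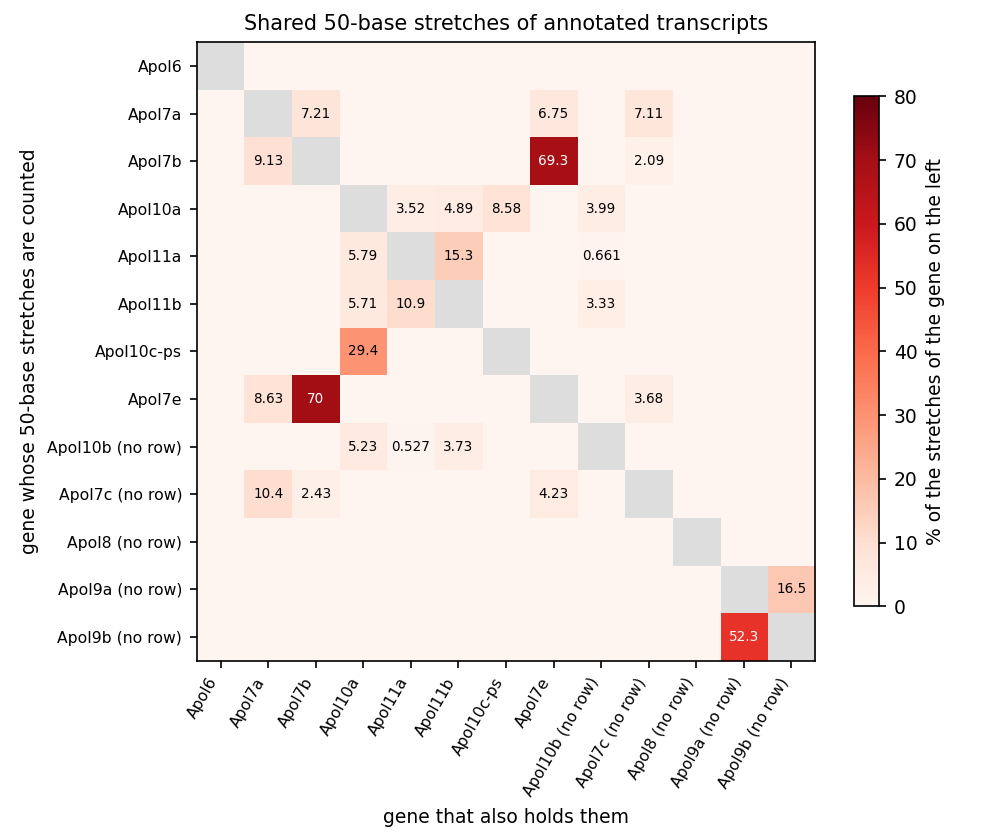
Share of the 50-base stretches of each gene's GENCODE M21 transcripts (rows) that also occur in transcripts of another apolipoprotein L gene (columns), in percent; blank cells are 0 and grey cells are the gene itself. Apol7b and Apol7e share 69.3% and 70.0% of their stretches, and Apol6 and Apol8 share none with the family.

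The order of the members was compared per length, as CPM per kilobase of the deposited row length. In PFOA the highest mean level was that of Apol10c-ps, at 146.1 ± 14.4 CPM per kilobase (SD, n = 3). Apol6 followed at 78.4 ± 15.8 and Apol7a at 51.8 ± 16.4 CPM per kilobase (SD, n = 3 each), and these 2 neighbours in the order overlapped. Apol10a was next at 23.8 ± 9.44 CPM per kilobase, below every value of Apol7a. Apol7e, Apol11b and Apol7b lay between 2.31 and 3.64 CPM per kilobase on average, with overlapping ranges, and Apol11a was last at 0.802 CPM per kilobase. These levels depend on the length used: the Apol6 row is 8645 bases long against 2314 bases for its longest annotated transcript. Per kilobase of the longest annotated transcript, a choice made after seeing the data, Apol10c-ps was at 598.1 ± 59.0, Apol6 at 292.8 ± 58.8 and Apol7a at 65.6 ± 20.8 CPM in PFOA (SD, n = 3 each). The order of the 8 was the same, and Apol6 (249.2 to 359.7 CPM) and Apol7a (44.4 to 85.9 CPM) no longer overlapped. The counts were still those of the whole row, which for Apol6 and Apol10c-ps is far longer than that transcript. Levels of these rows on this scale can thus be too high, and the loss of overlap rests on this choice.

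In control the order differed at the top. Apol6 (11.7 ± 5.77 CPM per kilobase) and Apol7a (9.34 ± 1.64 CPM per kilobase; SD, n = 3 each) came first with overlapping ranges, followed by Apol7e at 1.18 ± 0.20 CPM per kilobase. Apol10c-ps was at 0.424 CPM per kilobase, from replicate 1 alone, and overlapped Apol7e. The rows of Apol10a, Apol7b, Apol11b and Apol11a were at 0.133 CPM per kilobase or below. Per kilobase of the longest annotated transcript, again with the counts of the whole row, Apol6 was at 43.8 and Apol7a at 11.8 CPM in control, without overlap. Apol10c-ps (1.74 CPM) then came before Apol7e (1.29 CPM), with the same limit.

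The 8 rows together held 3194, 2764 and 2776 counts in PFOA and 175, 386 and 294 counts in control. Their summed level was 1432 ± 238 CPM in PFOA and 134.8 ± 50.6 CPM in control (SD, n = 3 each). PFOA replicate 1 was the highest PFOA library, at 1708 CPM against 1298 and 1292 CPM in replicates 2 and 3. The make-up of the sum differed between the groups. Apol10c-ps took 32.2% to 39.2% of the family's counts in the PFOA libraries, and 5.14%, 0% and 0% in control replicates 1, 2 and 3. Apol6 took 44.4% to 48.8% in PFOA and 62.9% to 82.1% in control. Apol7a took 8.18% to 12.3% in PFOA and 15.8% to 26.9% in control. Without Apol6, the largest contributor in control, the summed level of the other 7 rows was 22.5-fold higher in PFOA.

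**Figure D3:**
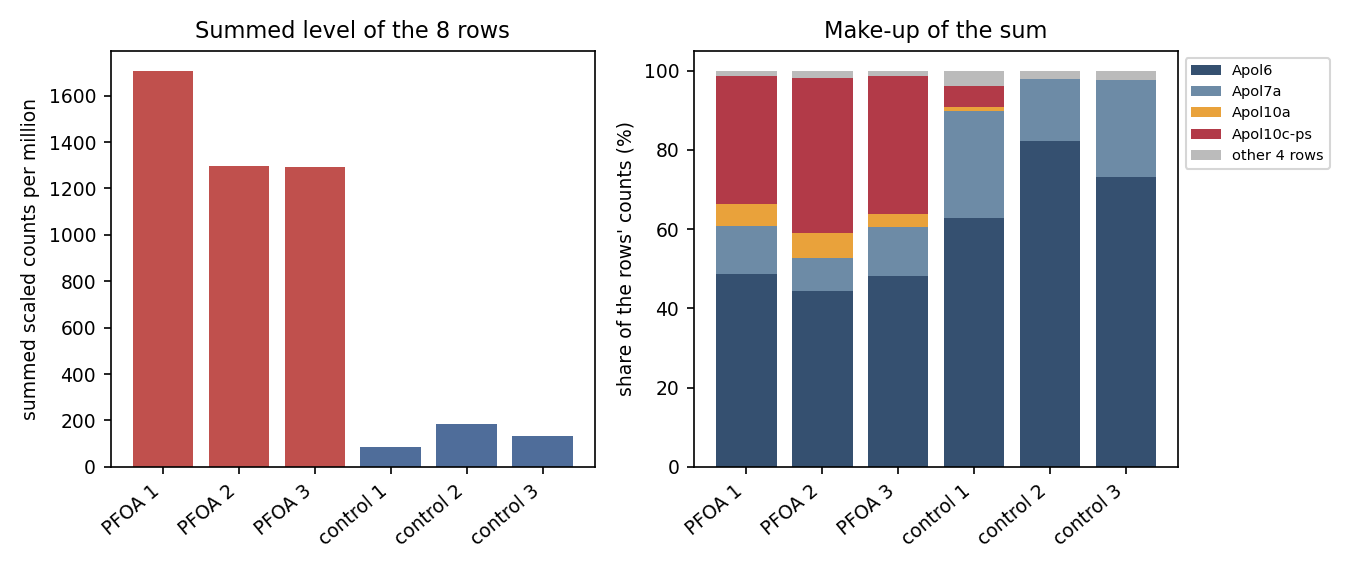
Left, summed level of the 8 apolipoprotein L rows in each library in scaled CPM; right, the percent of the rows' counts that each row takes, with Apol7b, Apol7e, Apol11a and Apol11b combined. Apol10c-ps takes 32.2% to 39.2% in the 3 PFOA libraries and at most 5.14% in the 3 control libraries.

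The median log2 fold of the 8 rows, from summed scaled counts with Apol11a at its bound, was 3.45, beside 1.97 over all listed rows that were higher in PFOA. Over the 5 tested members the median fitted log2 fold change was 2.74, beside 1.71 over the 804 tested rows that were higher. Ranked among those 804 rows, Apol6 had 195, Apol7a 228 and Apol7e 447 rows above it. Absence of control counts was shared with other listed rows: 91 rows, 8.79% of those higher, had no control count. A scaling by totals of listed counts alone moved the median of all tested rows from -0.03 to -0.24 on the log2 scale, and the 5 tested members stayed between 1.39 and 8.17. Both scalings use only the listed rows, which were selected to differ, so an offset common to all folds cannot be measured here.

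All 8 rows lie within 674.6 kb of chromosome 15 (77044729 to 77719285, mm10). Besides those placed above, Apol7a spans 77388219 to 77399110 and Apol7b 77422209 to 77447460 on the - strand, Apol10a 77477047 to 77518902 on the + strand, Apol11b 77633946 to 77643286 on the - strand and Apol7e 77698857 to 77719285 on the + strand. Of the 8 rows, 7 are labelled protein-coding, and 5 carry the ApoL protein family in the deposited annotation, which 0 other rows of the table do. GENCODE M21 annotates 13 apolipoprotein L genes in the cluster; Apol7c, Apol8, Apol9a, Apol9b and Apol10b are the 5 not listed, and nothing is known here of whether they differ. The rows lie on both strands and are mixed in order with the unlisted copies. The family's span holds 1 further row, Gm20688, a non-coding RNA within Apol7a on the same strand, with 14, 7 and 23 counts in PFOA and 1, 3 and 6 counts in control, and its reads cannot be told apart from unspliced Apol7a reads. Within 1000 kb on either side there were 3 further rows. Mpst, a mercaptopyruvate sulfurtransferase gene, had 7326, 1807 and 2197 counts in PFOA and 943, 774 and 741 counts in control, 4.75-fold higher. The row that merges Eppk1, the epiplakin gene, with BC024139 had 4398, 7387 and 6035 counts in PFOA and 15185, 12257 and 14854 counts in control, and C1qtnf6, a C1q and TNF related gene, had 116, 92 and 120 counts in PFOA and 287, 280 and 282 counts in control. Both were lower in PFOA, so that the nearest listed rows outside the cluster went both ways, as did the chromosome as a whole with 49 rows higher and 47 lower.

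**Figure D4:**
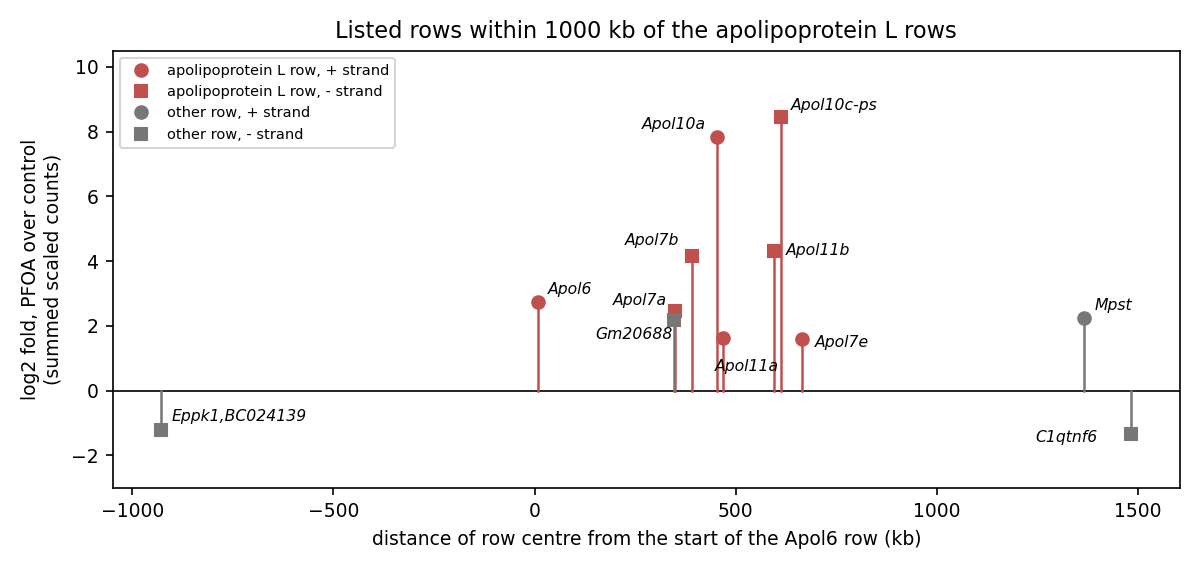
Log2 fold of summed scaled counts (PFOA over control) of every listed row within 1000 kb of the apolipoprotein L rows, against the distance of the row's centre from the start of Apol6 in kb; the value of Apol11a is a lower bound. The 9 rows within the cluster, 8 of the family and Gm20688, are all above 0, and of the 3 rows outside it only Mpst is.

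The level in PFOA replicate 1 over the mean of PFOA replicates 2 and 3 was 1.39 for Apol6, 1.55 for Apol7a, 1.58 for Apol10a, 1.75 for Apol7e and 1.15 for Apol10c-ps. It was 1.82 for Apol11a, 0.788 for Apol11b and 0.678 for Apol7b, which rest on at most 16 counts per library. The coefficient of variation in PFOA ranged from 9.86% for Apol10c-ps to 39.7% for Apol10a, and was 86.9% for Apol11a at its few counts.

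Leaving out single libraries kept the sign of the 5 fitted members. Apol6 lay between 2.30 and 3.13, Apol7a between 2.20 and 2.73 and Apol7e between 1.25 and 1.82 on the log2 scale. Only the rows that are nearly empty in control moved by more than 1.5 times, as given for Apol10a and Apol10c-ps above.

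**Figure D5:**
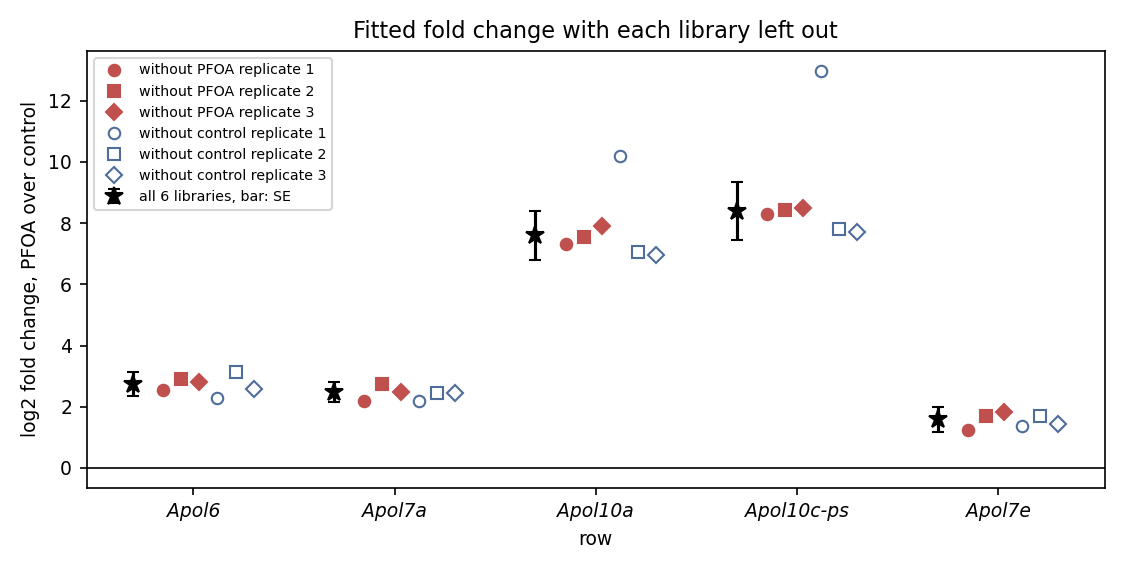
Fitted log2 fold change (PFOA over control, edgeR) of the 5 tested apolipoprotein L rows with all 6 libraries (stars, bars are SE) and with each library left out in turn. All values are above 0; without control replicate 1 Apol10a is at 10.19 and Apol10c-ps at 12.98, where no control count is left.

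The rows most like Apol6, the most abundant member, were sought among 871 singly named rows with a mean of at least 10 CPM, by Pearson's r of log2 CPM over the 6 libraries. They were Rhobtb3 (r = 0.997), Mettl7b (r = 0.997) and Cdx2 (r = 0.997), the last a homeobox factor of intestinal identity with 4617, 3549 and 4066 counts in PFOA and 619, 1313 and 868 counts in control. All rows of the table were selected for the difference that sets these libraries apart, and 222 of the 871 had an r above 0.9, so the values describe a shared step between groups. Among the members, Apol11b had an r of 0.968 with Apol6, Apol7a of 0.967, Apol7e of 0.943, Apol10a of 0.913, Apol10c-ps of 0.881, Apol7b of 0.823 and Apol11a of 0.686.

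Other gene groups related to the family were described from lists. Every tested row of the table was called, 50.0% higher and 50.0% lower, so nothing is read from counts of called rows in the lists here and below. The list of apolipoproteins other than L and lipid-loading proteins had 4 of its 24 genes in 3 rows. Apob, the structural protein of chylomicrons, had 8328, 1821 and 1814 counts in PFOA and 392, 823 and 706 counts in control. The row of Apoc2 and Apoc4 had 14, 12 and 23 counts in PFOA and 40, 132 and 66 counts in control. Apom had no count in PFOA and 7, 7 and 3 counts in control. Of the 2 tested rows 1 was higher and 1 lower, and with so few rows no contrast with the apolipoprotein L family is drawn.

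Interferon-stimulated genes had 8 of 50 list members in 7 rows, and all 7 were called higher in PFOA, beside 50.0% of all tested rows. Their summed level was 8680, 3219 and 3542 CPM in PFOA replicates 1, 2 and 3 and between 1499 and 1909 CPM in control. PFOA replicate 1 stood at 2.57 times the mean of the other PFOA libraries. The most abundant row, which merges the antiviral GTPase gene Mx1 with Fam3b, had 5429, 4317 and 4430 counts in PFOA and 1720, 2553 and 2475 counts in control. The merged row of the interferon-inducible GTPases Igtp and Irgm2 had 4403, 1148 and 1331 counts in PFOA and 679, 749 and 949 counts in control. Iigp1, of the same GTPase family, had 4471, 390 and 276 counts in PFOA and 192, 118 and 113 counts in control. In these 3 rows every PFOA library was above every control library, as in 48.6% of all listed rows, and PFOA replicate 1 was the highest. Ifit2, an antiviral RNA-binding protein gene, had 721, 480 and 887 counts in PFOA and 182, 241 and 335 counts in control. Its highest PFOA library was replicate 3. The groups overlapped for Cxcl9, with 35 counts in PFOA replicate 3 and 36 counts in control replicate 1. The part of interferon signalling in the apolipoprotein L levels was not tested.

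Genes of programmed cell death and membrane permeabilisation had 6 of 33 list members in 4 rows, 3 called higher and 1 lower. Gsdme, a pore-forming gasdermin, had 377, 612 and 657 counts in PFOA and 80, 118 and 120 counts in control, 5.34-fold higher. Mlkl, the executor of necroptosis, was 2.04-fold higher. The merged row of Gsdmc2, Gsdmc3 and Gsdmc4 had 27941, 21673 and 4556 counts in PFOA and 7668, 2194 and 3625 counts in control. Gsdma had 20, 11 and 10 counts in PFOA and 62, 42 and 58 counts in control. The autophagy and lipid droplet list had 2 of 20 genes with a row, Cidec and Plin1, of which Cidec was tested and called higher.

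Markers of cell types and of colon position moved between the groups beside the family. Of the posterior identity list, 7 of 7 tested rows were lower in PFOA, and the 3 untested rows, Hoxc9, Hoxc10 and Hoxc11, were higher. The summed level was 195.7 to 299.6 CPM in PFOA against 4114 to 7752 CPM in control. Hoxb13 had 0, 6 and 3 counts in PFOA and 9884, 5730 and 7988 counts in control, and Hoxd13 had 1, 0 and 0 counts in PFOA and 3297, 345 and 1935 counts in control. Losses were smaller in other rows: the row that merges 9530018H14Rik with Hoxa13 was at 0.0598 and Hoxa10 at 0.354 of control. Small intestinal enterocyte genes had 5 rows higher and 2 lower (5083 to 7306 CPM in PFOA, 1762 to 2011 CPM in control); of the most abundant, the fatty acid carrier Fabp2 was 14.4-fold, the bile acid transporter Slc10a2 3.64-fold and the alkaline phosphatase Alpi 19.0-fold higher, and Ace was at 0.336 of control. Absorptive colonocyte genes had 2 rows higher and 8 lower (32990 to 87690 CPM in PFOA, 42730 to 70660 CPM in control). Car1 was 6.55-fold and the guanylin gene Guca2a 2.08-fold higher, while Slc26a3 was at 0.208 and the carbonic anhydrase Car4 at 0.393 of control. Goblet cell genes had 4 rows higher, 3 of them listed as Muc2, and 6 lower (149900 to 332200 CPM in PFOA, 146200 to 265800 CPM in control). The 3 Muc2 rows, all of which enter that sum, were 3.05-fold to 3.21-fold higher. The row that merges Fcgbp with 9530053A07Rik was at 0.430 and Clca1 at 0.185 of control. In bulk tissue, fewer cells of a type and less RNA per cell cannot be told apart.

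T and natural killer cell genes had 10 of 22 list members with a row (188.0 to 424.5 CPM in PFOA, 62.8 to 90.0 CPM in control). All 10 were called higher, beside 50.0% of all tested rows. The most abundant were Cd8a, Gzma, Nkg7 and Gzmb, at 2.54-fold, 6.83-fold, 2.58-fold and 9.61-fold higher. Adipocyte genes had 3 tested rows higher and 2 untested rows higher (3442 to 5167 CPM in PFOA, 802.9 to 1012 CPM in control). Most of that sum is Pparg, a nuclear receptor gene that colon epithelium also expresses. It had 8958, 7184 and 7123 counts in PFOA and 1594, 2019 and 2183 counts in control. The lipid droplet gene Cidec had 366, 144 and 315 counts in PFOA and 20, 49 and 18 counts in control. Cfd had 225, 3 and 522 counts in PFOA and 32, 25 and 3 counts in control, and the adiponectin gene Adipoq had 54, 0 and 150 counts in PFOA and 1, 3 and 0 counts in control. Red blood cell genes had 4 rows lower and 1 untested row lower (123.0 to 211.3 CPM in PFOA, 561.7 to 1485 CPM in control), with the merged row of the globins Hbb-bt and Hbb-bs at 0.181 of control. Of the neutrophil list, Ly6g alone had a row and was lower (5.58 to 29.9 CPM in PFOA, 569.9 to 964.9 CPM in control), and of the smooth muscle and fibroblast list Cnn1 alone, which was lower (1475 to 2089 CPM in PFOA, 2546 to 5907 CPM in control). The lists of dendritic cells and macrophages, of B and plasma cells and of endothelium had 0 rows, and their levels were not analysed here. The part of these cell types and of colon position in the apolipoprotein L levels was not tested.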

How the data were processed

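Libraries of 3 PFOA and 3 control colon samples were made with a SMARTER kit for mRNA, per the labels' protocols. HISAT2, HTSeq and mm10 are named, without versions, in the submitters' processing notes. The authors deposited raw counts per gene row; which tool assembled the loci, how strand and multi-mapping reads were treated and how the rows were selected is not stated. Columns were matched to samples by the labels' descriptions. The design assumed a table of all genes, so calls serve as description.

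Counts were fitted with edgeR 4.0.16 (R 4.3.3; filterByExpr, TMM, quasi-likelihood F-test, Benjamini-Hochberg over 1608 rows, threshold 0.05, two-sided), and the step was tested on simulated data. In those data most rows were unchanged, unlike in the deposited table, so that test does not cover the setting used here. SE is the absolute log2 fold change over the square root of F. Fold ratios are of summed counts over TMM-adjusted totals, with a floor of 3 counts per group at 0 and 95% Clopper-Pearson intervals at 1 to 3 counts; both cover counting error only. Alternatives were DESeq2 1.42.0, limma-voom (limma 3.58.1), other scalings and filters, the replicate number as a block and each library left out. Same-group libraries were compared for duplicates: chi-square over degrees of freedom was 22.4 or more, so none were. The result of 1 motif searched is not reported here. Transcripts and gene limits came from GENCODE M21, promoters from RefSeq (GRCm38.p6).

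Named genes are all members, every row within 1000 kb, the 4 most abundant rows of each of 16 lists (fewer where a list had fewer or where a list is summarised by its sum) and the 3 rows most like the most abundant member. The members and lists were chosen with earlier results of these data known.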

Additional observations from a re-analysis of the deposited data

How the results depend on the processing

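The 5 tested apolipoprotein L rows kept their direction and stayed past the threshold in all 65 refits under 13 alternatives (adjusted p from 4.82e-11 to 0.0405 across edgeR, DESeq2 and limma-voom). The table was selected on this contrast, so staying past the threshold follows largely from that selection and is no further evidence of a difference. With no filter on low counts, all 8 rows were tested and called higher (8 rows), as nearly every listed row was called (1033 higher and 998 lower of 2033). With each library left out, 5 to 7 member rows were called higher and 0 lower, over all rows 721 to 806 higher and 810 to 859 lower, and the summed level averaged 1317 to 1533 CPM in PFOA and 110.3 to 164.1 CPM in control. With limma-voom the log2 fold change of Apol10c-ps was 9.63. Same-numbered PFOA and control libraries did not deviate together (correlations of 0.121, -0.027 and 0.102), which gives no sign of pairing by number but cannot exclude it. With the replicate block 5 member rows were called higher, and 780 rows higher and 799 lower over the table. Apol7b, Apol11a and Apol11b, at 16 counts or fewer per library, and the control levels of Apol10a and Apol10c-ps are limited by counting; the near-identical copies are limited by how reads were assigned.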
